A study of Homo sapiens with 6 samples.

Results

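The YAP-TEAD genes examined here were 10 genes of the Hippo pathway, chosen by name: the coactivators YAP1 and WWTR1 (TAZ), the transcription factor TEAD1, the kinase LATS2, the scaffold proteins AMOTL2 and AJUBA, and the target genes CTGF, CYR61, ANKRD1 and AXL. All 10 were found among the 29153 genes of the deposited table, and all 10 were among the 13452 genes that were tested, those whose FPKM (fragments per kilobase of transcript, scaled to library size) averaged 0.5 or more over the libraries. The levels were measured by RNA sequencing in cells of the human hepatoma line HepG2, with 3 libraries in each of 2 groups. One group received a lentivirus with the control hairpin (shNC) and the other a lentivirus with a hairpin against the long noncoding RNA LINC01977 (shLINC01977), both for 72 h, and the methods describe puromycin selection of infected cells. A single hairpin against LINC01977 was sequenced, named sh3 in the labels, and the labels do not say whether libraries of a group came from separate cultures, so that p-values measure the spread between these libraries, which may be technical.

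The Hippo pathway is a kinase cascade that limits organ growth and is well known for its control of liver size. The kinases STK3 and STK4 activate LATS1 and LATS2, which phosphorylate YAP1 and its relative TAZ, so that these are held in the cytoplasm or degraded. Unphosphorylated YAP1 and TAZ enter the nucleus, bind the TEAD transcription factors and raise the transcription of target genes such as CTGF, CYR61 and ANKRD1. Most of this control acts on the proteins, which were not measured here.

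Library totals were between 49929024 and 60441515 counts. LINC01977 itself had 16 counts or fewer in every library, with 4, 0 and 16 in shNC and 0, 0 and 4 in shLINC01977. A reduction could therefore not be shown at this depth (log2 fold change -2.12, standard error 2.0, adjusted p = 0.580 from edgeR over all listed genes). The paper reports that knockdown in its HepG2 line was checked by qRT-PCR. Whether that line carried the hairpin named sh3 is not stated. All 8 hepatocyte markers were expressed in both groups. In shLINC01977, 6 of the 8 fell with an adjusted p under 0.05 in edgeR, where 8.07% of all tested genes did. APOB (log2 fold change 0.007) and TTR (-0.17) did not pass that test. The summed FPKM of the 8 was between 4078 and 4440 in shNC and between 2872 and 2932 in shLINC01977. ALB, which encodes albumin, went from a mean of 1456 to 713 FPKM. Of 8 fibroblast and stellate cell markers, 5 were listed, and only COL1A1 and PDGFRB passed the filter, with a summed FPKM over the 5 of 3.04 to 4.21 in shNC and of 5.48 to 7.67 in shLINC01977. PDGFRB rose (adjusted p = 0.00620 from edgeR), while COL1A1 did not pass the test (adjusted p = 0.0504 from edgeR). VIM, THY1 and COL3A1 stayed below the filter. Of these, VIM went the other way, with 48, 83 and 64 counts in shNC and 38, 30 and 4 in shLINC01977. Of 4 endothelial markers, the 3 listed were below the filter as well, with a summed FPKM of 0.266 to 0.441 in shNC and 0.220 to 0.315 in shLINC01977. Of the 2 leukocyte markers, PTPRC was below it, while CD68, which had 10.4 FPKM in shNC and 14.8 FPKM in shLINC01977, did not pass the test (adjusted p = 0.0627 from edgeR). In bulk libraries such as these, fewer cells of a type and less RNA per cell cannot be told apart. The part of these markers in the results on the YAP-TEAD genes was not tested.

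After the LINC01977 hairpin, the 10 genes moved in both directions. AXL, ANKRD1 and CYR61 rose, CTGF and AJUBA fell, and YAP1, WWTR1, TEAD1, LATS2 and AMOTL2 did not pass the test. Thus 5 of the 10 genes had an adjusted p under 0.05 in edgeR's quasi-likelihood test, 3 higher and 2 lower, where 15.1% of all tested genes were called (7.05% higher and 8.07% lower). The median log2 fold change was -0.108 for the 10 genes and -0.0010 for all tested genes. AXL alone was past a fold change of 2 with an unadjusted P of at most 0.05, the thresholds in the study's methods, which 2.60% of tested genes passed (1.55% higher and 1.05% lower). The groups did not overlap for 7 of the 10 genes in CPM (counts scaled to library size with TMM factors), 3 higher and 4 lower, against 37.1% of tested genes (18.8% higher and 18.3% lower), and for each of the 7 the exact two-sided permutation test gave p = 0.1, the smallest that 3 libraries against 3 allow. The same 5 genes were called, in the same directions, in each of 14 alternative fits, and WWTR1 joined them in 2 of the 14.

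**Figure D1:**
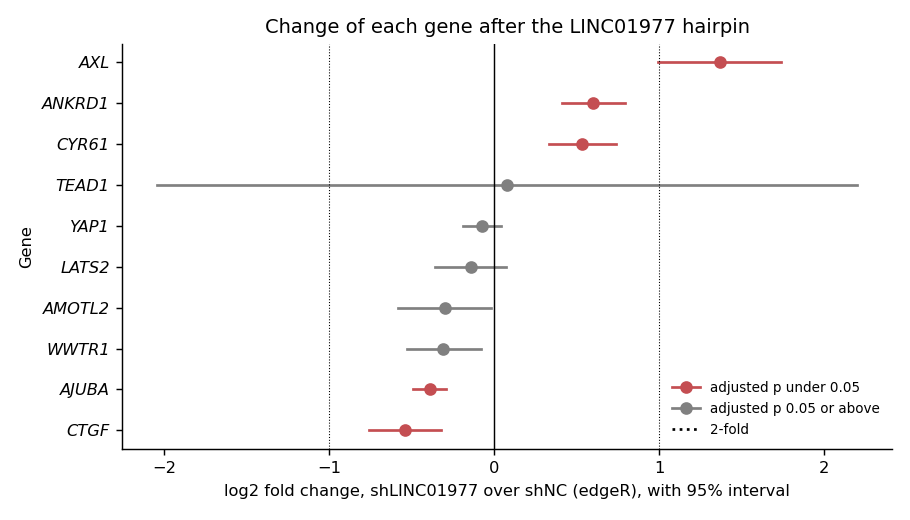
Log2 fold change of each of the 10 YAP-TEAD genes in shLINC01977 over shNC from edgeR, with its 95% interval, 3 libraries per group; red marks an adjusted p under 0.05 and the dotted lines mark a fold change of 2. AXL lies at 1.37, ANKRD1 at 0.60 and CYR61 at 0.53, CTGF at -0.54 and AJUBA at -0.39, and the interval of TEAD1 runs from -2.04 to 2.20.

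In levels per transcript length, the genes spanned a wide range in shNC cells. ANKRD1 was the highest with 32.5 ± 2.96 FPKM (SD, n = 3), followed by YAP1 with 28.4 ± 1.03 FPKM, CTGF with 23.0 ± 2.21 FPKM and AJUBA with 22.8 ± 0.663 FPKM. WWTR1 had 8.02 ± 0.551 FPKM, CYR61 5.16 ± 0.341 FPKM and LATS2 5.13 ± 0.342 FPKM. AMOTL2 with 2.70 ± 0.351 FPKM, TEAD1 with 2.48 ± 2.25 FPKM and AXL with 2.03 ± 0.393 FPKM were the lowest. In this order the ranges of ANKRD1 and YAP1 overlapped, as did those of CTGF and AJUBA and of CYR61 and LATS2. The ranges of AMOTL2 and TEAD1 and of TEAD1 and AXL overlapped too. Library by library in shNC, ANKRD1 was above YAP1 each time (33.7, 34.7 and 29.1 against 29.2, 27.2 and 28.7 FPKM). The other overlapping pairs changed order between shNC libraries. In shLINC01977 cells the order ran ANKRD1, YAP1, AJUBA, CTGF, CYR61, WWTR1, AXL, LATS2, TEAD1 and AMOTL2, so that AXL had moved from the last place to the seventh.

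**Figure D2:**
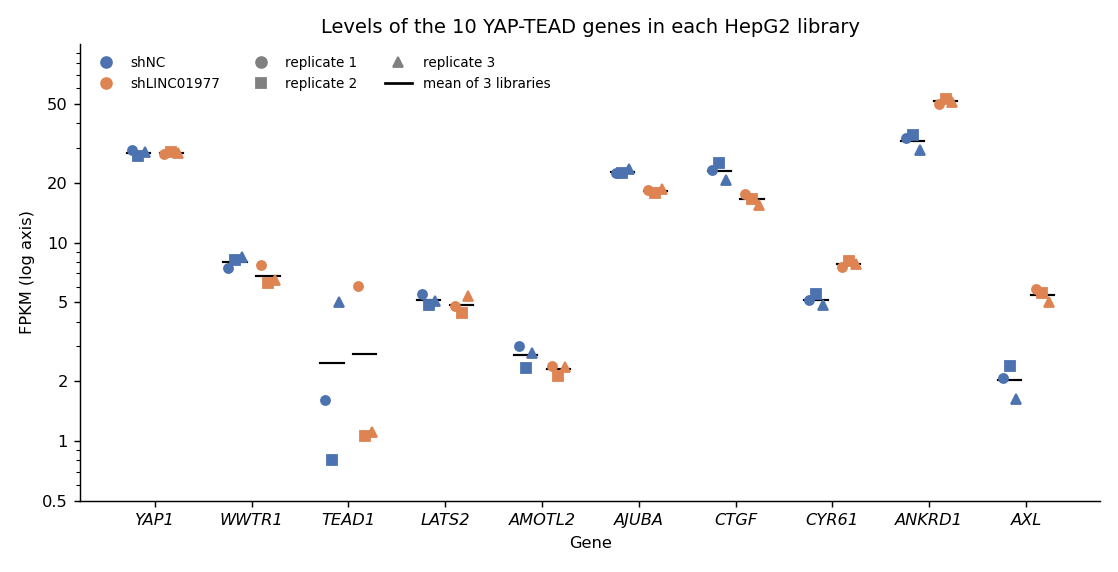
FPKM (log axis) of the 10 YAP-TEAD genes in each of the 6 HepG2 libraries; blue points are shNC, orange points shLINC01977, the shape gives the replicate number and the black line the mean of 3 libraries. ANKRD1, CYR61 and AXL have every shLINC01977 point above every shNC point, CTGF and AJUBA have every one below, and TEAD1 has 1 high library in each group.

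YAP1, the main coactivator of the pathway (ENSG00000137693, GRCh38 chr11:102110461-102233423, plus strand), was measured with high precision. Its FPKM values were 29.2, 27.2 and 28.7 in shNC libraries and 27.9, 28.7 and 28.1 in shLINC01977 libraries, from 10603 to 13436 counts. The groups overlapped, and the log2 fold change was -0.072 with a 95% interval from -0.19 to 0.04 (adjusted p = 0.362 from edgeR). WWTR1, which encodes the coactivator TAZ (ENSG00000018408, chr3:149517235-149736714, minus strand), had FPKM values of 7.41, 8.18 and 8.47 in shNC and 7.66, 6.22 and 6.45 in shLINC01977. Only the first shLINC01977 library lay within the range of the shNC libraries, and after TMM scaling that library was also below them. The log2 fold change of WWTR1 was -0.31 with a 95% interval from -0.53 to -0.08, and it missed the threshold after adjustment (adjusted p = 0.0738 from edgeR). Without the first shLINC01977 library its adjusted p was 0.0285 in edgeR, and with all libraries it was 0.0223 in DESeq2. The ratio of WWTR1 to YAP1 FPKM within a library was 0.283 ± 0.0257 in shNC and 0.241 ± 0.0305 in shLINC01977 (SD, n = 3), and its ranges overlapped (exact two-sided permutation test, p = 0.20).

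The TEAD factors are the DNA-binding partners of YAP1 and TAZ. TEAD1 (ENSG00000187079, chr11:12674591-12944483, plus strand) was uneven within both groups. Its counts were 1151, 510 and 3810 in shNC and 4116, 812 and 697 in shLINC01977, so that the third shNC library and the first shLINC01977 library stood far above the others of their groups. The highest CPM was 6.26 times the lowest in shNC and 5.61 times the lowest in shLINC01977, while the median of this ratio over the 9580 tested genes with a mean CPM of at least 10 was 1.13 in each group. A ratio of at least 3 in both groups was seen in 46 of these 9580 genes (0.480%). TEAD1 was the only one of the 10 YAP-TEAD genes among them, and 2 other genes of the pathway lists described below were among them too. A change of TEAD1 between the groups was therefore not detectable (log2 fold change 0.078, 95% interval -2.04 to 2.20, adjusted p = 0.966 from edgeR). The value was 1.11 without the third shNC library and -1.26 without the first shLINC01977 library, with adjusted p of at least 0.350 from edgeR in every fit that left out 1 library.

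The other TEAD genes were steadier and more abundant. TEAD4 had the highest FPKM of the family, with 27.3, 26.7 and 23.8 in shNC and 29.4, 25.4 and 25.8 in shLINC01977. Its log2 fold change was -0.014 with a 95% interval from -0.22 to 0.19 (adjusted p = 0.937 from edgeR). TEAD4 made up 53.7% ± 4.93 of the summed TEAD FPKM in shNC and 56.9% ± 2.62 in shLINC01977 (SD, n = 3), and TEAD1 made up between 1.69% and 11.1% in single libraries. TEAD3 had 12.9, 13.4 and 13.3 FPKM in shNC and 12.2, 9.96 and 11.5 FPKM in shLINC01977. All shLINC01977 values of TEAD3 were below all shNC values, and it fell by 0.30 on the log2 scale (standard error 0.078, adjusted p = 0.0467 from edgeR). The call of TEAD3 was kept without the first shLINC01977 library and lost without any other single library, with an adjusted p of up to 0.113 in edgeR. TEAD2 had 6.72 ± 0.581 FPKM in shNC and 6.58 ± 0.196 FPKM in shLINC01977 (SD, n = 3), with a log2 fold change of -0.092 and a 95% interval from -0.29 to 0.10 (adjusted p = 0.495 from edgeR).

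**Figure D3:**
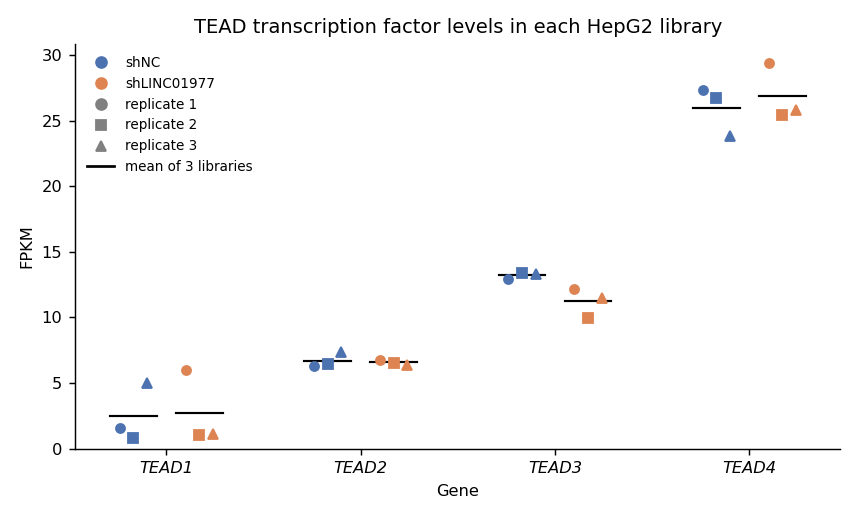
FPKM of the TEAD1, TEAD2, TEAD3 and TEAD4 genes in each of the 6 libraries; colours give the group, shapes the replicate number and black lines the mean of 3 libraries. TEAD4 lies between 23.8 and 29.4 FPKM in all libraries, and TEAD1 is at 5.03 in the third shNC library and 6.03 in the first shLINC01977 library but at 1.61 or less in the others.

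Among the regulators, AJUBA, a LIM-domain scaffold protein that binds LATS kinases and holds back their activity (ENSG00000129474, chr14:22971174-22982642, minus strand), fell. Its FPKM values were 22.3, 22.4 and 23.5 in shNC and 18.3, 17.7 and 18.5 in shLINC01977. The 2 groups were well apart, with a spread of at most 1.05 times within a group in CPM, and the decrease was 1.31-fold (log2 fold change -0.39, standard error 0.042, adjusted p = 0.00243 from edgeR). AJUBA lies in an interval shared with AL132780.3 on the same strand, whose counts were 9.84% to 14.6% of those of AJUBA, and reads of the 2 genes may not be fully told apart. LATS2 (ENSG00000150457, chr13:20973032-21061547, minus strand), a kinase that inhibits YAP1 and is itself a YAP target, had 5.50, 4.82 and 5.06 FPKM in shNC and 4.77, 4.44 and 5.36 FPKM in shLINC01977. Its groups overlapped (log2 fold change -0.14, 95% interval -0.36 to 0.07, adjusted p = 0.326 from edgeR). AMOTL2 (ENSG00000114019, chr3:134355874-134375479, minus strand), an angiomotin family protein that holds YAP1 at cell junctions and is also a YAP target, had 3.02, 2.32 and 2.77 FPKM in shNC and 2.40, 2.13 and 2.37 FPKM in shLINC01977. Its groups were apart in CPM but overlapped in FPKM, and the difference did not pass the adjusted threshold (log2 fold change -0.30, 95% interval -0.58 to -0.02, adjusted p = 0.144 from edgeR).

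The target genes showed opposite changes. CTGF (ENSG00000118523, chr6:131948176-131951373, minus strand) and CYR61 (ENSG00000142871, chr1:85580761-85583962, plus strand) encode related secreted matricellular proteins of the CCN family and are target genes commonly used as readouts of YAP activity. CTGF had FPKM values of 23.3, 25.1 and 20.7 in shNC and 17.5, 16.5 and 15.5 in shLINC01977. All shLINC01977 libraries were below all shNC libraries, and the decrease was 1.46-fold (log2 fold change -0.54, standard error 0.092, adjusted p = 0.0113 from edgeR). CYR61 had FPKM values of 5.14, 5.51 and 4.83 in shNC and 7.49, 8.09 and 7.82 in shLINC01977. For this gene all shLINC01977 libraries were above all shNC libraries, and the increase was 1.45-fold (log2 fold change 0.53, standard error 0.085, adjusted p = 0.00943 from edgeR).

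ANKRD1 and AXL moved with CYR61. ANKRD1, an ankyrin repeat protein induced by mechanical load (ENSG00000148677, chr10:90912096-90921276, minus strand), had FPKM values of 33.7, 34.7 and 29.1 in shNC and 49.8, 52.9 and 51.3 in shLINC01977. The increase was 1.51-fold, with no overlap between the groups (log2 fold change 0.60, standard error 0.080, adjusted p = 0.00514 from edgeR). AXL, the receptor tyrosine kinase for the ligand GAS6 (ENSG00000167601, chr19:41219203-41261766, plus strand), showed the largest change of the 10 genes. Its counts were 743, 766 and 614 in shNC and 2001, 2127 and 1580 in shLINC01977, which correspond to 2.07, 2.40 and 1.62 FPKM and to 5.85, 5.55 and 5.01 FPKM. The lowest shLINC01977 library was thus above the highest shNC library by a wide margin, and the increase was 2.58-fold (log2 fold change 1.37, 95% interval 0.99 to 1.74, standard error 0.16, adjusted p = 0.00295 from edgeR). By the size of its log2 fold change AXL ranked 204th of the 13452 tested genes.

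To compare the targets without the scaling of libraries, the FPKM ratio of each target to CTGF was taken within each library, a comparison chosen after the values had been seen. The ratio of CYR61 to CTGF was 0.220, 0.220 and 0.233 in shNC and 0.427, 0.490 and 0.504 in shLINC01977, a 2.11-fold shift. The ratio of ANKRD1 to CTGF was 1.44, 1.38 and 1.41 in shNC and 2.84, 3.20 and 3.31 in shLINC01977, a 2.21-fold shift. The ratio of AXL to CTGF went from 0.0875 ± 0.00880 to 0.331 ± 0.00646 (SD, n = 3 each), a 3.79-fold shift. No ratio overlapped between the groups. Since CTGF had been seen to fall and the other genes to rise, these ratios only describe the size of the shift. A p-value for them would be no independent support.

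**Figure D4:**
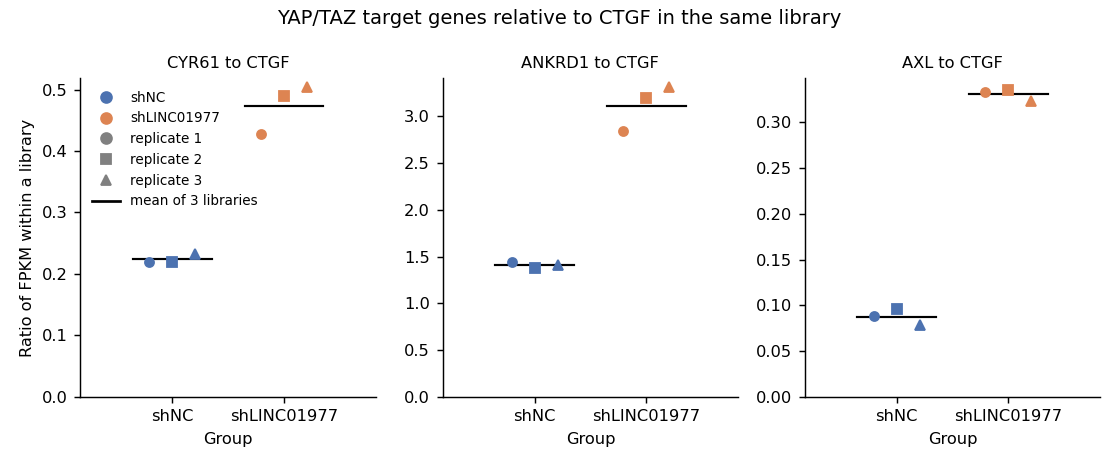
FPKM of CYR61, ANKRD1 and AXL divided by that of CTGF in the same library (linear axes from 0), for 3 shNC and 3 shLINC01977 libraries; shapes give the replicate number and black lines the mean. All shLINC01977 points are above all shNC points, with means of 0.474 against 0.224 for CYR61, 3.12 against 1.41 for ANKRD1 and 0.331 against 0.0875 for AXL.

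The promoters of the targets were read because they moved in opposite directions. RefSeq promoter sequences (GRCh38.p14) were found for 8 of the 10 genes, with 12 start sites in all, while CYR61 and TEAD1 had none in the table. In the 250 bases before each start, GGAATG, the core of the TEAD motif, was searched on both strands. TGANTCA was searched as well, a loose form of the AP-1 motif TGA(C/G)TCA that allows any middle base. GGAATG occurred in 6 of the 12 promoters, where 11.9% of all 35116 promoters of the table hold it, and TGANTCA in 1 of the 12, where 6.57% of all promoters hold it. The promoter of CTGF, which fell, held 3 copies of GGAATG, and 29 of the 35116 promoters (0.0826%) hold at least 3. The promoter of ANKRD1, which rose, held 2 copies, and 0.940% of all promoters hold at least 2 copies of GGAATG. It also held the TGANTCA match, which reads TGATTCA and is thus not the stricter TGA(C/G)TCA. Of the 2 AXL start sites, the upstream one held neither motif and the downstream one held 1 copy of GGAATG on the other strand. YAP1 and 1 start site each of AMOTL2 and AJUBA held 1 copy, and LATS2 and both WWTR1 start sites held none. A match of letters is a description and not a bound site, and its relation to the changes was not tested. The genes were chosen for their known place in the YAP-TEAD pathway, so their share of GGAATG is no independent result. The sequences of CTGF (chr6:131951373-131951622, minus strand), ANKRD1 (chr10:90921088-90921337, minus strand) and the AXL start sites (chr19:41218973-41219222 and chr19:41226505-41226754, plus strand) are shown because these genes carry the opposite changes; they read 5′ to 3′ and end at the base before the start, with motif matches in capitals.
CTGF: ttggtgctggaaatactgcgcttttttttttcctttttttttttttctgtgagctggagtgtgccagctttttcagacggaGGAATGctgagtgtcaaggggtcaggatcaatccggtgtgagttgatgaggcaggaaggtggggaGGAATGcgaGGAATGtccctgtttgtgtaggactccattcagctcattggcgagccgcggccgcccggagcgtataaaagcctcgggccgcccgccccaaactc
ANKRD1: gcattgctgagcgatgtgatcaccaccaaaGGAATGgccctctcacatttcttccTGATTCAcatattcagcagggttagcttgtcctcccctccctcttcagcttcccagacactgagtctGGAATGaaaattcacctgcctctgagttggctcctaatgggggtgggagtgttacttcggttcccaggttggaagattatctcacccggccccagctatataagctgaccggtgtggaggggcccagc
AXL upstream start: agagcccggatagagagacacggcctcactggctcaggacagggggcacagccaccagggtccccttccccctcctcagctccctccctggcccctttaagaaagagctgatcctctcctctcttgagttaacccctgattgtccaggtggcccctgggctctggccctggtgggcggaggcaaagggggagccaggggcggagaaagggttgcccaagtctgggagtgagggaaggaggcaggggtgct
AXL downstream start: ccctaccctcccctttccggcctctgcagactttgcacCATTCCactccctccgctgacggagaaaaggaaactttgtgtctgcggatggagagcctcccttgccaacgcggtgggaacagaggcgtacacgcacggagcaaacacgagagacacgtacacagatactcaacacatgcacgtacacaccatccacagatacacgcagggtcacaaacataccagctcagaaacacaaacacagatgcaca

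In the copies shown for CTGF, the matches began 169, 104 and 95 bases before the start. In ANKRD1, GGAATG began 220 and 128 bases before the start, with the TGANTCA match 195 bases before it.

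The rest of the pathway was described from lists of other genes. Among 21 other YAP/TAZ target genes, 17 passed the filter, of which 5 rose, 3 fell and 9 did not pass the test. Their median log2 fold change was 0.170, and 47.1% of them were called, against 15.1% of all tested genes. The split depended on the scaling, with 7 higher and 2 lower with library totals and 7 higher and 1 lower in both limma fits. IGFBP3, which binds insulin-like growth factors, rose from 0.378 ± 0.0949 to 1.21 ± 0.259 FPKM (log2 fold change 1.60, standard error 0.26, adjusted p = 0.00953 from edgeR). MYOF, a ferlin of membrane repair, rose from 1.73 ± 0.189 to 3.82 ± 0.219 FPKM (log2 fold change 1.08, standard error 0.098, adjusted p = 0.00151 from edgeR). These 2 genes were also past a fold change of 2, but not in the limma fit on log2(FPKM + 1), a scale that understates the change of low genes, where the values were 0.68 for IGFBP3 and 0.82 for MYOF. EDN1 (endothelin 1), AREG (amphiregulin, a ligand of the EGF receptor) and NT5E (CD73, an ectoenzyme that produces adenosine) rose as well. Their log2 fold changes were 0.92 for EDN1 (adjusted p = 0.0166), 0.73 for AREG (adjusted p = 0.00211) and 0.60 for NT5E (adjusted p = 0.00680), in edgeR. EDN1 was called without the first shLINC01977 library but not without any other single library, where its adjusted p reached 0.0548 in edgeR.

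Of the targets that fell, F3, which encodes tissue factor, the starter of coagulation, went from 3.44 ± 0.195 to 2.17 ± 0.177 FPKM (SD, n = 3), a 1.65-fold decrease (log2 fold change -0.72, adjusted p = 0.00719 from edgeR). THBS1, the matrix glycoprotein thrombospondin 1, fell by 0.25 on the log2 scale (adjusted p = 0.00984 from edgeR), and DOCK5, an exchange factor for Rac, by 0.24 (adjusted p = 0.0437 from edgeR). DOCK5 lost its call whichever library was left out, with an adjusted p of up to 0.120 in edgeR, and THBS1 lost it in both limma fits. Called genes in both directions were thus found among these targets, as among CTGF, CYR61, ANKRD1 and AXL. CCDC80, TGFB2, FOXF2 and RBMS3 were below the filter.

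Upstream of YAP1, the 4 genes of the kinase and junction lists called in edgeR were higher in shLINC01977. NF2 of the kinase list had a log2 fold change of -0.41 with a 95% interval from -0.77 to -0.06. It was called lower in DESeq2 (adjusted p = 0.0439) but not in edgeR (adjusted p = 0.115). Of the 13 tested genes of the kinase list, 7 had a positive and 6 a negative log2 fold change. In the kinase module and its adaptors, 13 of 14 genes were tested, with STK4 (log2 fold change 0.36, adjusted p = 0.0156) and TAOK1, a kinase that activates STK3 and STK4 (0.22, adjusted p = 0.0266), higher and 0 lower in edgeR. Without the first or without the second shNC library neither of them was called, and without any of the other 4 libraries STK4 alone was. LATS1, the paralog of LATS2, had a log2 fold change of 0.016 with a 95% interval from -0.19 to 0.23 (adjusted p = 0.927 from edgeR). The median over the 13 genes was 0.016, and 15.4% were called, against 15.1% of all tested genes. Of the junction, polarity and other YAP/TAZ-binding proteins, 7 of 11 were tested and 2 were higher, among them FAT1, so that 28.6% were called against 15.1% of all tested genes. FAT1, an atypical cadherin, had 16.5, 16.2 and 16.9 FPKM in shNC and 27.8, 26.5 and 24.2 FPKM in shLINC01977 (log2 fold change 0.60, standard error 0.063, adjusted p = 0.00226 from edgeR).

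Among the cofactors of the TEADs, VGLL4, which competes with YAP1 for TEAD binding, rose from 5.09 ± 0.222 to 6.74 ± 0.143 FPKM (SD, n = 3), which is 0.34 on the log2 scale (standard error 0.058, adjusted p = 0.0115 in edgeR). VGLL3 was below the filter. The list of other TEADs and cofactors thus held 1 higher and 1 lower gene (TEAD3) of the 4 tested, where 15.1% of all tested genes were called, and the count was 1 wherever TEAD3 lost its call.

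The deposited table assigns 144 genes to the KEGG Hippo signaling pathway, 6 of them among the 10 YAP-TEAD genes. Of the 144, 100 were tested, of which 7 rose and 12 fell, so that 19.0% were called against 15.1% of all tested genes, and their median log2 fold change was -0.034. The largest increases were in DLG4, a scaffold protein (log2 fold change 1.42, adjusted p = 0.00197), CDH1, which encodes E-cadherin (0.85, adjusted p = 0.0341), AREG (0.73), AXIN2, a scaffold and target gene of the Wnt pathway (0.44, adjusted p = 0.00187) and the ligand TGFB1 (0.38, adjusted p = 0.0121), all from edgeR. On log2(FPKM + 1) the value of DLG4 was 0.67 in limma. CDH1 lost its call without the second or the third shNC library and without the first or the second shLINC01977 library, with an adjusted p of up to 0.0985 in edgeR. The largest decreases were in the TGF-beta receptor TGFBR2 (log2 fold change -0.61, adjusted p = 0.00106), CTGF (-0.54), WNT3 (-0.48, adjusted p = 0.0112), GDF7 (-0.45, adjusted p = 0.0357) and the Wnt receptor FZD4 (-0.45, adjusted p = 0.00134), all from edgeR. GDF7, a ligand of the TGF-beta superfamily, lost its call whichever library was left out, with an adjusted p of up to 0.108 in edgeR. WNT3, FZD4 and AXIN2 are genes of the Wnt branch and TGFB1, TGFBR2 and GDF7 of the TGF-beta branch that KEGG draws into the pathway. With scaling by library totals the split of called genes changed, to 10 higher and 7 lower in this pathway and to 65.5% higher among all called genes, against 46.6% under TMM.

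**Figure D5:**
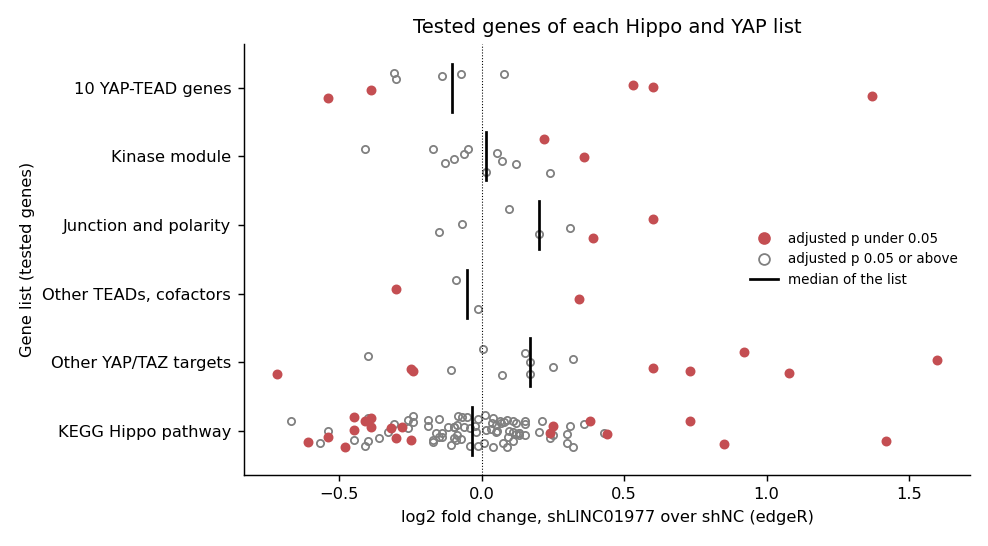
Log2 fold change (shLINC01977 over shNC, edgeR) of the tested genes of each list; each point is a gene, red where its adjusted p is under 0.05, and the black line is the median of the list. The 10 YAP-TEAD genes and the other YAP/TAZ targets have red points on both sides of 0, while the kinase module and the junction and polarity genes have them only above 0.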

How the data were processed

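RNA was sequenced from 6 HepG2 libraries, 3 per group, grouped by their titles. Per the labels, bcl2fastq 2.0, HISAT2, StringTie, DESeq2 and limma and the build hg38 were named; which tool made the counts and the annotation release are not given in the sources used here. The deposited counts are whole numbers per gene, not normalized, and the deposited FPKM values are scaled by the authors to transcript length and library total. All 10 genes have their GENCODE 29 coordinates.

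Counts of the 13452 genes whose FPKM averaged 0.5 or more were tested with edgeR 4.0.16 (TMM, quasi-likelihood, Benjamini-Hochberg) in R 4.3.3, after a check on simulated counts. Standard errors and 95% intervals were derived from the F statistic. The genes and lists were chosen with earlier results of these data known. Named besides the 10 genes are LINC01977, the TEADs, LATS1, NF2 and in each list up to 5 genes called in each direction. The 3 genes most correlated with YAP1 or CYR61 are named as well. Cell type markers were read from fixed lists, and genes below the filter were named to account for the lists. A called gene of the junction list is not reported here. Alternatives were RLE scaling, library totals, DESeq2 1.42.0, limma 3.58.1 on log2(FPKM + 0.1) or log2(FPKM + 1), other filters, a replicate block, and each library left out.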

Additional observations from a re-analysis of the deposited data

How the results depend on the processing

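The numbers of called YAP-TEAD genes (5) and of those past 2-fold (1) were stable: over 14 alternatives the first was 5 or 6 and the second 1. The log2 fold changes of AXL, ANKRD1, CYR61, CTGF and AJUBA kept direction and call in all 14, with the adjusted p at most 0.0420. TEAD1, at 0.078, changed sign, to -0.15 without the first shNC library, -0.34 without the second and -1.26 without the first shLINC01977 library, where fewer samples were fitted; its range with 1 library left out was -1.26 to 1.11. The count in the kinase module, 2, was 1 without a filter, 1 with a replicate block and 0 to 1 with 1 library left out. The count among the other TEADs and cofactors, 2, was 1 with library totals, 1 with either limma fit, 1 without a filter, 1 with a replicate block and 1 to 2 with 1 library left out; the cause was not tested. Replicate numbers did not pair the libraries (correlations of same-numbered deviations -0.0286, 0.0174 and 0.0552), and under the replicate block 5 of the 10 genes were called and 1390 of all genes, against 2033. All tested genes called were 1176 to 1398 with 1 library left out and 2845 with DESeq2. LINC01977 stayed above an adjusted p of 0.05 in each alternative that gave one, from 0.428. Its mean FPKM was below both the main and the stricter filter, so its values came from fits of all listed genes. Depth limited the values of LINC01977 and of the list genes below the filter.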

Other observations

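The tested genes whose log2 CPM followed CYR61 most closely over the 6 libraries were SAT1 (Pearson r = 0.9984), MALT1 (0.9967) and ANLN (0.9967), with log2 fold changes of 0.67, 0.50 and 0.094. For YAP1 they were FRG1CP (0.9918), DCAF1 (0.9915) and AL035458.2 (0.9859). These values are a description over libraries of 2 groups, which all genes share.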
